A study of Mus musculus with 4 samples.

Results

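Insertions of 2 to 39 bp were examined at 2 single Cas9 cuts in mouse embryonic stem cells. They were taken from amplicon alignments as alleles with 1 internal run of inserted bases of that length, placed within 10 bp of the predicted cut, with no internal deletion, and with gaps at the ends of an alignment ignored. Of 76510 aligned alleles in 4 libraries (1636791 reads), 3884 alleles met the rule, and they held 46428 reads. Counting an inserted sequence at an aligned position once per site, whatever mismatches lay elsewhere in the read, they comprised 1468 distinct insertions. Besides length and position, the rule used the single run and the absence of an internal deletion. Abundance, base content and resemblance to neighbouring sequence were not part of it. Alleles aligned with a deletion as well were left out, while lost bases aligned as mismatches were kept.

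The study cut E14 mESCs, a feeder-free male 129/Ola embryonic stem cell line grown with LIF, with Cas9 nuclease and a single sgRNA supplied on pX CRISPR plasmids by lipofection under puromycin or GFP selection. Genomic DNA of the pooled cells was amplified by PCR around each cut and sequenced. Site 7 lies on chromosome 16 and Site 9 on chromosome 6, with 2 replicate libraries each. No untreated library was analysed here, so these values have no background measured without a nuclease. Nothing in the sample labels says that replicates came from separate cultures, and the spread between them may be technical. The pools can hold uncut cells, cells cut more than once and cells at different stages of repair. Cell line, selection and nuclease are labelled alike for both sites, which differ in the locus and the sgRNA.

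Cas9 leaves a largely blunt break that is mostly joined by the non-homologous end joining machinery, which can add a few bases when the ends are staggered and filled in. Polymerase theta-mediated end joining instead anneals short homologies exposed on resected strands, and it can extend an annealed end along a nearby template before the break is sealed. Such extension leaves an insertion that repeats flanking sequence, in the same orientation (a direct copy) or as its reverse complement (an inverted copy). A tandem duplication is a direct copy that adjoins its template.

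The amplicon of Site 7 covered chr16:92520087-92520332 in mm9, and Cas9 was predicted to cut between bases 92520184 and 92520185, in an intron of Clic6, although the sample description names Runx1. That of Site 9 covered chr6:92370046-92370253, with the cut between 92370121 and 92370122 in an intron of Prickle2. Both are written 5′ to 3′ on the plus strand with the protospacer in capitals, because positions below are counted on these strands from the cut. Base 1 follows the cut and base -1 precedes it, and each stretch holds 30 bases on both sides.
Site 7 amplicon: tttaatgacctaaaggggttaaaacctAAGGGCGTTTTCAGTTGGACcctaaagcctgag
Site 9 amplicon: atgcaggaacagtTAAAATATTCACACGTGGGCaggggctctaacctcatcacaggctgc
The guide of Site 7 matches the minus strand, so the PAM and the bases next to it come before the cut, and at Site 9 they come after it.

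The alleles below are examples of inverted copies, and each is shown with 10 unaltered bases on either side and the new bases in capitals. Direct copies and tandem duplications are described further below. New bases are the inserted bases together with the bases beside them out to the outermost mismatch within 10 bp. Bases in between that match the reference are included, and replaced bases are counted over the same stretch. At Site 9 a nested set ended in the same bases and copied the reverse complement of the sequence downstream of the cut. The copied stretch reached equally far in TAGA and GTTAGA and progressively further in the rest.
Site 9 TAGA replacing gg: attcacacgtTAGAgcaggggctc
Site 9 GTTAGA replacing gg: attcacacgtGTTAGAgcaggggctc
Site 9 GAGGTTAGA replacing gg: attcacacgtGAGGTTAGAgcaggggctc
Site 9 GATGAGGTTAGA replacing gg: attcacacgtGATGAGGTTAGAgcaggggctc
Site 9 GTGATGAGGTTAGA replacing gg: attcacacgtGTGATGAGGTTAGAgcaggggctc
The template of this set on the amplicon strand, in capitals, runs from base 8 to base 24.
Site 9 downstream template: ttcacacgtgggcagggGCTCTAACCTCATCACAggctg
A second Site 9 set copied the sequence before the cut in inverted orientation, and its template from base -21 to base -6 is in capitals on the last line.
Site 9 AATATTTT replacing ggc: ttcacacgtgAATATTTTaggggctcta
Site 9 AATATTTTA with nothing replaced: ttcacacgtgAATATTTTAggcaggggct
Site 9 AATATTTTAA replacing gg: ttcacacgtgAATATTTTAAcaggggctct
Site 9 AATATTTTAACT with nothing replaced: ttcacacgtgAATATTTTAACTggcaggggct
Site 9 upstream template: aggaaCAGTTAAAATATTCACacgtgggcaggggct
Examples of the Site 7 inverted copies found in both replicates, from either side of its cut, are shown with the template before the cut.
Site 7 CCCCTTTA replacing g: taaaacctaaCCCCTTTAggcgttttca
Site 7 CTGAAAA replacing ggg: taaaacctaaCTGAAAAcgttttcagt
Site 7 upstream template: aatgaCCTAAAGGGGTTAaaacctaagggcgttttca

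Insertions of this length made up a larger part of the modified reads at Site 9 than at Site 7. A modified read is one that the authors' alignment program did not class as unmodified. Modified reads were 96.5% and 96.4% of aligned reads at Site 7 and 64.2% and 60.1% at Site 9, so the denominators differed between the sites. Site 7 had such an insertion in 1.16% (95% Wilson interval 1.13 to 1.20) and 0.710% (0.684 to 0.736) of modified reads, and Site 9 in 7.37% (7.27 to 7.46) and 6.51% (6.41 to 6.61). Wilson intervals here and below reflect counting alone, since copies of 1 molecule made by PCR were not told apart. The libraries held 380601 to 447620 aligned reads, and 3 reads, taken as the smallest count to be shown, amount to between 0.000757% and 0.00131% of modified reads. The sites did not overlap. The means were 0.937% ± 0.322 (SD, n = 2) at Site 7 and 6.94% ± 0.606 (SD, n = 2) at Site 9, a difference of 6.0 percentage points, with p = 0.333 in an exact two-sided permutation test. With 2 libraries against 2, this is the smallest p the test can give, so no comparison between the sites could pass a threshold of 0.05. Over all aligned reads, 1.24% and 0.750% at Site 7 and 5.12% and 4.07% at Site 9 carried such an insertion. The difference between the sites shrank to 3.0 points when the insertion had to be placeable exactly at the cut, and to 1.26 points when no mismatch was allowed within 10 bp of it.

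Single-base insertions were more frequent than the 2 to 39 bp class in every library, at 2.08% and 1.91% of aligned reads at Site 7 and 5.34% and 4.56% at Site 9. Insertions of 40 bp or more accounted for 0.560% and 0.359% at Site 7 and 0.624% and 0.503% at Site 9. At the edges of the rule, the 4 libraries, in the order Site 7 replicates 1 and 2 and Site 9 replicates 1 and 2, held 8288, 7838, 23914 and 17346 reads with 1 inserted base and 1072, 601, 6413 and 4565 with 2. They held 159, 98, 95 and 99 reads with 39 inserted bases and 81, 139, 249 and 48 with 40. Few insertions lay near the outer limit of position, with 17, 9, 0 and 0 reads at 10 bp from the cut and 47, 0, 0 and 0 at 11 bp.

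A part of these reads had not been assigned to the cut by the authors' program. Of the reads with an insertion of 2 to 39 bp, 9.59% and 8.76% at Site 7 and 7.67% and 3.75% at Site 9 were called unmodified. No insertion was attributed to the cut in 27.4% and 31.2% of these reads at Site 7 and in 28.7% and 20.8% at Site 9. The alignment places an insertion in a repeated sequence at its leftmost position, and 92.5% and 88.3% of reads at Site 7 and 94.9% and 95.4% at Site 9 had it within 3 bp of the cut. Allowing every equivalent placement, 58.4% and 51.2% at Site 7 and 56.0% and 46.0% at Site 9 could be set exactly at the cut. For that measure the ranges of the sites overlapped.

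The most frequent length was 2 bp at both sites, and long insertions took a larger part at Site 7. In Site 7 libraries 21.7% and 19.5% of insertion reads had 2 bp, against 28.0% and 29.5% at Site 9. Both libraries of Site 7 had a median inserted length of 7 bp, and those of Site 9 had medians of 6 and 5 bp (7 ± 0 bp against 5.5 ± 0.707 bp, SD, n = 2, exact permutation p = 0.333). Mean lengths came to 13.5 and 14.2 bp for Site 7, against 9.13 and 8.75 bp for Site 9. Insertions of 20 to 39 bp made up 28.4% and 32.9% of the reads at Site 7 and 13.1% and 11.9% at Site 9, and those of 6 to 9 bp made up 9.23% and 13.1% against 20.6% and 18.6%. In both classes the libraries of the 2 sites did not overlap. With reads of alleles below 10 reads left out, the medians differed by 0.5 bp in place of 1.5 bp.

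**Figure D1:**
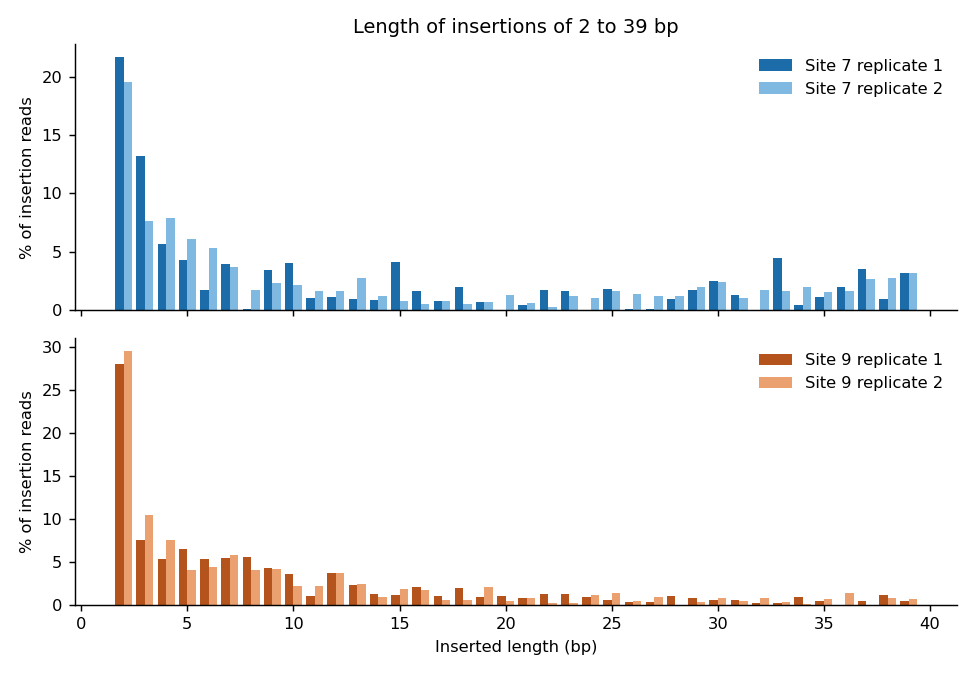
Inserted length (x axis, bp) against the percent of insertion reads (y axis, linear from 0) for the 2 libraries of Site 7 (upper panel) and Site 9 (lower panel). The tallest bars stand at 2 bp in all 4 libraries, between 19.5% and 29.5%, and the bars beyond 20 bp are taller at Site 7.

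Many of these alleles were not plain additions. At Site 7 53.7% and 49.7% of insertion reads matched the reference at every base within 10 bp of the insertion, and at Site 9 28.2% and 26.9% did (51.7% ± 2.88 against 27.6% ± 0.901, SD, n = 2, exact permutation p = 0.333). In the others, bases within 10 bp of the insertion mismatched the reference, and the allele gained 2 to 39 bp on balance. Sequencing and PCR errors can be among these mismatches and were not told apart. Mismatches farther away were in 5.18% and 6.33% of insertion reads at Site 7 and 5.25% and 4.41% at Site 9. For single-base insertions the share without a nearby mismatch was 93.4%, 94.8%, 93.3% and 92.4% in the 4 libraries, above the 2 to 39 bp class in each (2 to 39 bp minus 1 bp, mean difference -53.9 points, exact paired permutation test over 4 libraries, p = 0.125, the smallest it can give). For insertions of 40 bp or more it was 63.4%, 66.7%, 56.9% and 51.6%. The mismatches were mostly on the right of the insertion. They lay only there in 28.6% and 35.2% of insertion reads at Site 7 and in 57.8% and 58.4% at Site 9, and only on the left in 14.2% and 7.53% and in 5.25% and 4.19%. The part that the leftmost placement plays in this asymmetry was not tested.

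**Figure D2:**
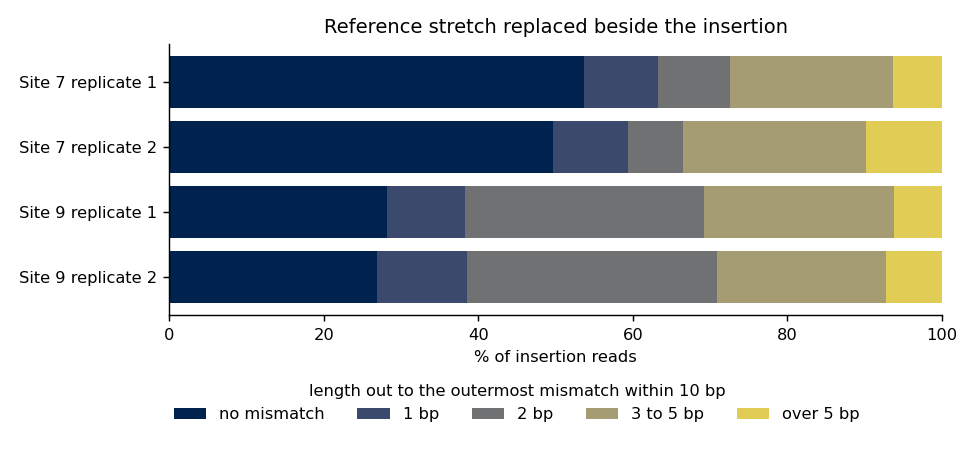
Horizontal bars divide the insertion reads of each library (x axis, percent) by the length of reference sequence out to the outermost mismatch within 10 bp of the insertion. Reads without a mismatch fill 53.7% and 49.7% of the Site 7 bars and 28.2% and 26.9% of the Site 9 bars, where the 2 bp class is widest.

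The replaced stretch, out to the outermost mismatch, was 2 bp long in 30.8% and 32.4% of insertion reads at Site 9. At Site 7 it was so in 9.31% and 7.20%. TA aligned at position -1 was the most abundant insertion of Site 9, with 2484 and 2390 reads, or 10.8% and 15.4% of the insertion reads of the 2 libraries. It made up 0.865% and 1.04% of modified reads. Only 161 and 105 of its reads had no mismatch beside the 2 inserted bases. In its commonest form, with 1822 and 2050 reads, TAGA stood in place of the 2 G bases that follow one another across the cut, the first allele of the nested set shown above.

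The next most abundant insertions were also 2 bp long. At Site 9 they were GT at position -3 (1055 and 200 reads), AA at the cut (530 and 100), CC at the cut (359 and 327) and GG at position -1 (351 and 306). The GT and GG insertions were exact tandem duplications. Replicate 1 held about as many GG and CC reads as replicate 2, and more GT and AA reads. Of modified reads, GT made up 0.174% in replicate 1 and 0.0345% in replicate 2, and AA 0.185% and 0.0437%.

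At Site 7 the most abundant insertion was GG at position -1, a tandem duplication with 235 and 216 reads, or 4.76% and 7.01% of insertion reads and 0.0613% and 0.0545% of modified reads. AG at position -2, another duplication, had 133 reads in replicate 1 and 6 in replicate 2, and none of them was called modified. CC at the cut had 89 and 48 reads. The other insertions among the 5 most abundant of Site 7 were 15 and 10 bp long, with 114 and 113 reads in replicate 1 and none in replicate 2, and no stretch of them longer than 5 bp was in the amplicon.

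Exact tandem duplications were a minor class that was concentrated among the shortest insertions. They held 9.92% and 11.9% of insertion reads at Site 7 and 7.92% and 3.86% at Site 9. The means were 10.9% ± 1.43 and 5.89% ± 2.87 (SD, n = 2), and the sites did not overlap (exact permutation p = 0.333). Of 2 bp insertions, 34.7% and 51.9% at Site 7 and 22.0% and 11.1% at Site 9 were duplications, whereas none of the insertions of 10 bp or more was. When only alleles without a nearby mismatch were counted the difference between the sites fell from -5.03 to -1.15 points and the libraries overlapped. It widened to -12.1 points when alleles below 10 reads were left out.

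Among 2 bp insertions without a nearby mismatch, the side of the cut that was repeated differed between libraries. Bases away from the PAM were repeated in 29.9% and 56.2% of these reads at Site 7, and bases on the PAM side in 16.9% and 1.56%. At Site 9 the side away from the PAM was repeated in 21.0% and 8.29% and the PAM side in 13.4% and 20.9%, so the order of the sides turned between its 2 replicates. The longest tandem duplication with reads in both replicates among those named was CGTG at Site 9, aligned at position -4, with 94 and 58 reads. All of them had been called unmodified. Its duplicated allele, with the extra copy in capitals, is shown because the repeated bases end at the cut.
Site 9 CGTG duplication: aatattcacaCGTGcgtgggcagg

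The inserted bases were poorer in G and C at Site 9 than at Site 7, which is not the order of the sequence around the cuts. G and C made up 50.1% and 50.7% of inserted bases in the libraries of Site 7, against 33.2% and 35.7% in those of Site 9 (50.4% ± 0.375 against 34.4% ± 1.76, SD, n = 2, exact permutation p = 0.333). Within 10 bp on each side of the cut the reference held 40% G and C at Site 7 and 65% at Site 9, and within 50 bp it held 50% and 52%. Inserted bases at Site 9 were 33.0% A, 32.6% T, 18.5% G and 15.98% C as means of the libraries, and at Site 7 23.4%, 26.2%, 26.3% and 24.1%. Without alleles that have a nearby mismatch, the GC difference was -8.33 points in place of -15.97.

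The size of the gap in GC content varied with length. Insertions of 2 bp had a GC content of 68.0% and 62.2% at Site 7, against 27.7% and 24.01% at Site 9, where TA alone supplied 39.8% and 55.3% of the 2 bp reads. The gap was narrower for 3 to 5 bp, at 41.1% and 38.0% against 34.0% and 34.7%, and for 6 to 9 bp, at 36.8% and 34.2% against 29.0% and 29.0%. For 10 to 19 bp GC content was 46.0% and 39.8% against 32.9% and 30.1%. For insertions of 20 to 39 bp it was 52.3% and 54.6% against 35.8% and 44.4%. Single-base insertions were richer in G and C than the 2 to 39 bp class in all 4 libraries, at 82.1%, 82.7%, 69.2% and 63.4%. Insertions of 40 bp or more were also richer, at 52.7%, 57.0%, 46.6% and 47.9%. The mean differences, taken as 2 to 39 bp minus the other class, were -31.9 and -8.60 points, each with p = 0.125 in an exact paired permutation test over 4 libraries.

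Among insertions of 8 bp or more, copies of the flanking sequence took a larger share at Site 9 than at Site 7. A copy was a stretch of at least 8 bp found within 50 bp of the cut, and the longer of a direct and an inverted match decided its class. Direct copies held 13.4% and 17.3% of these reads at Site 7 and 27.1% and 26.2% at Site 9, of 2444, 1536, 9600 and 5920 reads. The means were 15.3% ± 2.78 and 26.7% ± 0.619 (SD, n = 2, exact permutation p = 0.333). Inverted copies held 9.29% and 4.43% at Site 7 and 28.5% and 22.1% at Site 9 (6.86% ± 3.44 against 25.3% ± 4.56, SD, n = 2, exact permutation p = 0.333). The mean share of direct copies was the larger at both sites, although inverted copies led in Site 9 replicate 1. The same search in the amplicon of the other site found copies in 3.64%, 7.55%, 1.25% and 4.32% of the reads. The excess of direct copies at Site 9 depended on the placement and on the shortest copy accepted, which also set the shortest insertion counted. With stretches of 6 bp, in insertions of 6 bp or more, it turned to -4.60 points. With 10 bp, in insertions of 10 bp or more, it was 17.9 points. With only insertions that can be placed at the cut it was 2.32 points (11.8% at Site 7 and 14.1% at Site 9), and the libraries of the sites overlapped.

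Because part of a copied stretch can coincide with bases that were already beside the cut, inverted copies were also sought across the junctions of the new bases, in a measure chosen after the data were seen. It asked for at least 8 bp in all and at least 4 new bases, or all where there were fewer. The measure covered inverted copies only, so it gives no comparison with direct ones. By this measure 20.3% and 14.9% of insertion reads of all lengths at Site 7 and 41.8% and 42.2% at Site 9 held an inverted copy (17.6% ± 3.8 against 42.0% ± 0.301, SD, n = 2, exact permutation p = 0.333). The other site's amplicon gave 1.30%, 2.24%, 0.903% and 1.83% in the same search. At Site 9 the last 6 bases before the cut, CACGTG, are their own reverse complement, so some tandem duplications there count as inverted copies too. Without these duplications 37.2% and 40.9% of insertion reads at Site 9 remained. The same 6 bases also count toward copies that are not duplications, as in TGAAT replacing ggc (166 and 59 reads), and those were kept. The search in the other amplicon does not measure this effect. With no mismatch allowed within 10 bp, the mean shares fell to 5.84% at Site 7 and 20.3% at Site 9. With only insertions that can be placed at the cut, they were 4.44% and 40.8%.

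**Figure D3:**
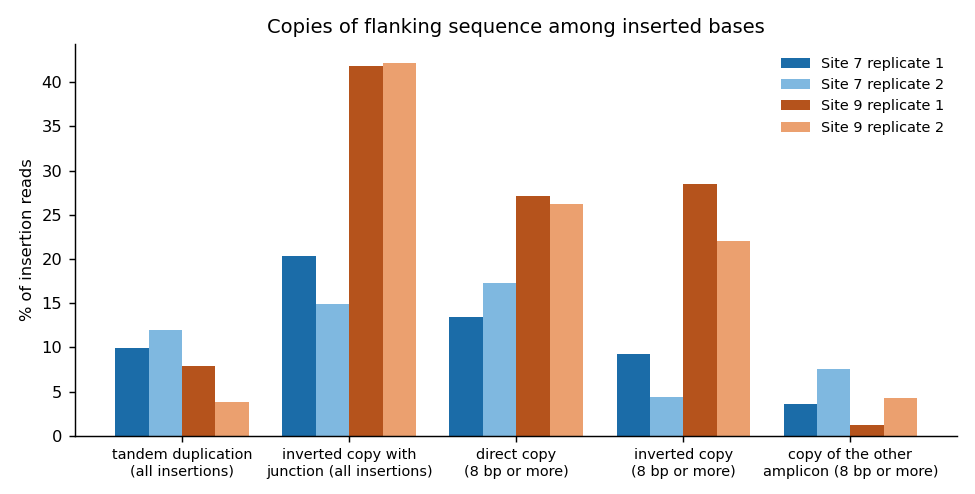
Percent of insertion reads (y axis, from 0) in 5 classes of copy, with a bar for each library. The first pair of classes is over all insertions of 2 to 39 bp and the other 3 are over those of 8 bp or more. The Site 9 bars are the taller ones for inverted and direct copies, and the Site 7 bars for tandem duplications.

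The inverted copies of Site 9 shared the edge of the template nearest the cut. Those that started at base 8 held 16.3% and 23.8% of all insertion reads in the 2 replicates, in 47 and 38 forms of which 12 were in both. Those with the edge at base -1 held 9.76% and 6.70%, those at base -6 held 8.63% and 6.30%, and those at base 11 held 2.47% and 0.969%. Each of these 4 families was in both replicates. Without exact tandem duplications the family at base -1 held 5.16% and 5.41%, below the family at base -6 in both replicates.

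The far edge of the template varied within a family. From base 8 the copied stretch reached base 15 in TAGA (1822 and 2050 reads) and in GTTAGA (80 and 153), base 19 in GAGGTTAGA (199 and 306), base 23 in GATGAGGTTAGA (187 and 56) and base 24 in GTGATGAGGTTAGA (209 and 87). All 5 replaced the same 2 G bases and ended against the same 2 flanking bases, gc, which belong to the copied stretch. At the other junction the copied stretch took in 2 flanking bases in TAGA and GATGAGGTTAGA, 1 in GAGGTTAGA and GTGATGAGGTTAGA and none in GTTAGA. The replaced bases were not the same throughout the family. GGTTAGA, with 212 and 51 reads, replaced 5 bases, cgtgg, and its copied stretch reached base 17. The bases between the cut and the template were hardly copied. Inverted copies covered each of bases 1 to 7 in at most 0.358% of insertion reads in replicate 1 and 0.00646% in replicate 2, against 16.5% and 23.8% at base 8.

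Before the Site 9 cut the inverted copies were nested in the same manner. From base -6 the stretch reached base -17 in AATATTTTA (120 and 81 reads) and AATATTTT (99 and 78), base -19 in AATATTTTAA (83 and 48) and base -21 in AATATTTTAACT without replaced bases (67 and 49). In each of them 3 flanking bases before the cut belonged to the copied stretch. The new bases adjoined a cut end that kept all its bases on the left and had between none and 3 bp replaced on the right. The longest inverted copy found in both replicates had 37 new bases in place of ggc, with 48 and 14 reads. It is shown because its copied stretch of 48 bp, running from base -48 to base -1, included 6 flanking bases on the left and 5 on the right.
Site 9 inverted copy with 37 new bases: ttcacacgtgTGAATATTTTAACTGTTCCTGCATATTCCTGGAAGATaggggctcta

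**Figure D4:**
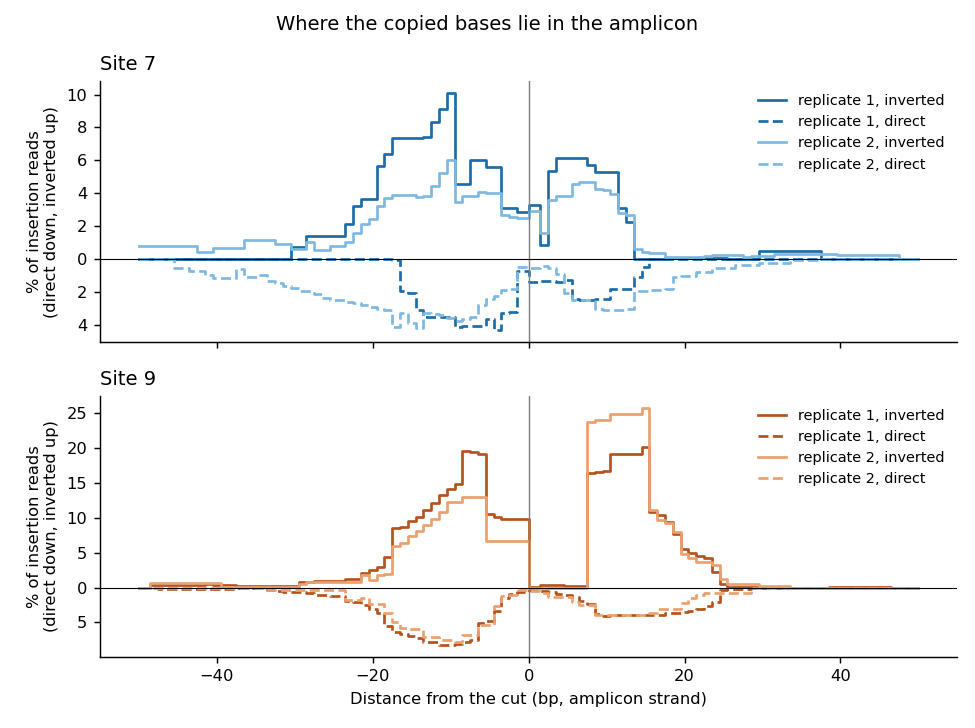
Percent of insertion reads (y axis) whose inverted copy (solid lines, drawn upwards) or direct copy (dashed lines, drawn downwards) covers a reference base at a given distance from the cut (x axis, bp), for both replicates of Site 7 and Site 9. At Site 9 the inverted lines step up at base 8, to 16.5% and 23.8%, and fall off after base 15, and the direct lines reach at most 8.22%. The heights of solid and dashed lines cannot be compared. Inverted copies were sought across the junctions, with flanking bases taken in, and direct copies only within the new bases.

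The leading inverted-copy family of Site 7 held a smaller part of insertion reads than the leading one of Site 9. Those with the near edge at base -10 held 6.19% and 3.02% of insertion reads, those at base 3 held 4.47% and 2.27%, those at base -4 held 2.45% and 1.56%, and those whose template crossed the cut held 2.87% and 2.47%. CCCCTTTA, with 52 and 17 reads, had a copied stretch of 13 bp from base -22 to base -10, of which 3 flanking bases lay before the new bases and 2 after them. CTGAAAA, with 44 and 28 reads, had one of 11 bp from base 3 to base 13. Only 3 forms of the first family and 1 form of the second were in both replicates, and the families at base -4 and across the cut had none in common. Besides CCCCTTTA, the shared forms of the first family had 42 and 34 reads in replicate 1 but only 1 and 3 in replicate 2.

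Direct copies lay more often before the cut than after it at both sites. Templates were sought here for the new bases, taken out to the outermost mismatch. They lay wholly before the cut in 55.9% and 63.8% of direct-copy reads at Site 7 and 67.1% and 67.7% at Site 9. They lay wholly after it in 33.9% and 31.8% and in 30.3% and 32.2%. The most abundant direct copy of Site 9 that was not an exact tandem duplication had TTAAAATATTCA in place of TGGG, a copy of bases -18 to -7, and its inserted bases had 185 and 55 reads. The corresponding insertion of Site 7 was 25 bp long, of which 15 bp matched the amplicon, and had 90 reads in replicate 1 and none in replicate 2. The leading insertion of 3 to 5 bp at Site 7, with 65 and 28 reads, is too short for this class. In its commonest form TTTTCA stood in place of GGC and matched bases 5 to 10. The 2 alleles below are shown because the new bases stand close to the sequence they match. At Site 7 only a g separates them, so gTTTTCA is followed directly by gttttca. This repeat was not counted as an exact tandem duplication, which was judged on the inserted bases alone.
Site 9 direct copy: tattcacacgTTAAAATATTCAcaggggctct
Site 7 TTTTCA replacing GGC: aaaacctaagTTTTCAgttttcagtt

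Long insertions were rarely found in both replicates of a site, whereas most 2 bp reads belonged to insertions that were. Insertions found in both replicates held 79.9% and 62.7% of the 2 bp reads at Site 7 and 93.4% and 95.9% at Site 9. For 3 to 5 bp they held 31.3% and 14.5% against 23.9% and 41.8%, for 6 to 9 bp 29.4% and 5.19% against 27.7% and 31.0%, for 10 to 19 bp 6.32% and 3.28% against 13.9% and 10.7%, and for 20 to 39 bp 1.71% and 0.296% against 1.60% and 0.758%. The share did not fall at every step, since in Site 9 replicate 1 it was higher at 6 to 9 bp than at 3 to 5 bp. Insertions of 1 bp in both replicates held 99.4% and 99.4% of the 1 bp reads at Site 7 and 99.6% and 100% at Site 9. Over all lengths from 2 to 39 bp, 29 distinct insertions were shared at Site 7, which is 15.4% of those in replicate 1 and 5.47% of those in replicate 2. At Site 9 58 were shared, or 10.6% and 20%. Of the shared insertions, 11 at Site 7 and 48 at Site 9 had at least 10 reads in each replicate.

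**Figure D5:**
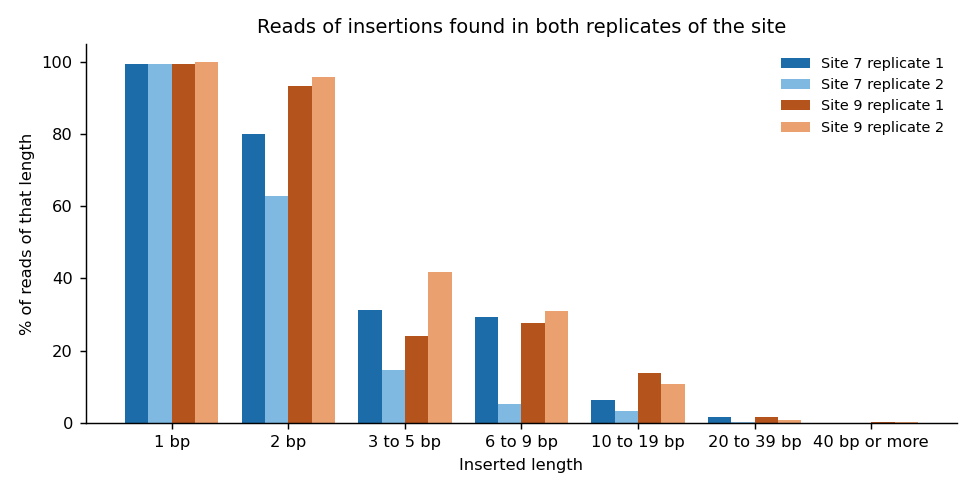
Percent of the reads of a length class (y axis, from 0) that belong to insertions found in both replicates of the site, by inserted length (x axis), with a bar for each library. The bars stand above 99% for 1 bp and under 2% for 20 to 39 bp in all 4 libraries.

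The shared insertions of 10 bp or more at Site 9 were copies of flanking sequence. Of 6 such insertions, 5 were inverted copies and 1 was a direct copy over their whole inserted length, with between 14 and 209 reads in each library. The share of whole-length copies among all Site 9 insertions of this length was not computed. With each distinct Site 9 insertion of 8 bp or more counted once, 28.2% held a direct and 18.5% an inverted copy of at least 8 bp (means of the libraries). Whether sharing goes with copying was not tested. At Site 7 5 insertions of 10 bp or more were shared, with 1 to 34 reads, and none was a copy over its whole length. The number of distinct insertions also differed between replicates, at 188 and 530 for Site 7 and 547 and 290 for Site 9, of which 65, 121, 155 and 91 had 1 read. With 1 read, a repaired allele and a sequencing error cannot be told apart. On average a distinct insertion had 26.3 and 5.82 reads in the libraries of Site 7, against 41.9 and 53.4 in those of Site 9.

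Most reads of insertions of 20 bp or more held no exact 20-base match to the genome. In a search of all their 20-base stretches against mm9, made after the data were seen, 90.9% and 78.1% of these reads at Site 7 and 63.4% and 60.6% at Site 9 had no match anywhere. Copies shorter than 20 bp escape this search, and inverted copies of 8 bp or more across the junctions were in 7.07% and 4.84% of the same reads at Site 7 and in 38.9% and 31.6% at Site 9. Over 20 bases their own amplicon matched in none and 4.15% of the reads at Site 7 and in 13.8% and 6.87% at Site 9. Another place in the genome, and only 1, matched in 1.93% and 13.2% at Site 7 and in 13.3% and 14.7% at Site 9, and several places matched in 7.21% and 4.54% and in 9.52% and 17.9%. The transfected plasmid was not searched, and 129/Ola bases that differ from mm9 would be missed.

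Some of the longer insertions matched sequence beyond the amplicon but close to the cut. Within 10000 bp, and leaving out simple repeats, 4 distinct insertions of Site 7 (69 and 10 reads) and 11 of Site 9 (161 and 369 reads) held a stretch of at least 16 bp that lies in Clic6 or Prickle2 outside the amplicon. Their templates lay 107 to 901 bp from the cut for Site 7, and for Site 9 they lay 288 to 2919 bp away. The copies were direct in 2 and inverted in 2 at Site 7, and direct in 8 and inverted in 3 at Site 9. None was in both replicates. The pair of Site 9 insertions that follows is shown, in full, because their templates overlap, lie 650 and 663 bp after the cut and match only 1 place in mm9. They had 137 and 53 reads, all in replicate 2.
Site 9 insertion from chr6:92370771-92370794, plus strand: tacataaacccatttactcttaaa
Site 9 insertion from chr6:92370784-92370809, plus strand: ttactcttaaatagcttcttcctttc

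A repeat of the telomere unit TTAGGG also occurred among the insertions, with most of its reads in Site 7 replicate 1. At least 2 units in a row, in any phase and on either strand, were found in 150 and 27 insertion reads at Site 7, or 3.04% (95% Wilson interval 2.59 to 3.55) and 0.876% (0.603 to 1.27). At Site 9 they were found in 1 and 34 reads, or 0.00436% and 0.220%. They belonged to 9, 6, 1 and 3 distinct insertions of 13 to 37 bp, of which 8, 5, 1 and 3 carried the G-rich strand on the amplicon strand. Neither amplicon held 2 units in a row. Among reads of insertions of 20 bp or more, which took a larger part at Site 7, the repeat was in 5.50% and 2.47% at Site 7 and in 0.0333% and 1.84% at Site 9. This motif was also looked for after the insertions had been seen.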

How the data were processed

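Reads were trimmed by the authors with Trim Galore 0.3.1 and aligned to each amplicon with CRISPResso, whose settings are not given in the sources used here. The deposited count of an allele is its number of aligned reads, not normalized, and the deposited percent is that count over all aligned reads of its library, used here only as a check. The program's number of inserted bases and its call of modified or unmodified were taken as deposited. Labels name mm9, and amplicons were placed on it by exact search.

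Alleles were read with Python 3.11.15, NumPy 2.4.6 and SciPy 1.17.1, and the functions were tested on simulated alleles. The cut was set 3 bp from the PAM. Both sites were compared by exact two-sided permutation of 2 libraries against 2, without pairing, because only numbers in the labels link them. Read shares of a library have 95% Wilson intervals. Named insertions are, at each site, the 5 with most reads, the leader of each length class (2, 3 to 5, 6 to 9, 10 to 19 and 20 to 39 bp), the leading tandem duplication of 4 bp or more, the leading other direct copy and the leading inverted copy. Inserted sequence is printed only up to 5 bp or where it matches the amplicon or mm9. The inverted-copy families, their nested forms and the insertions in both replicates were picked after their values were seen. Members and lists were chosen with earlier results of these data known. Alternatives changed the placement, mismatches, low counts, the unit counted, the definition of copies and the libraries.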

Additional observations from a re-analysis of the deposited data

How the results depend on the processing

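The difference between the sites kept its sign in every alternative for the share of modified reads, median length, GC content, tandem duplications and both measures of inverted copies. For direct copies it turned once, to -4.60 points (37.8% at Site 7 and 33.2% at Site 9). This was with copies of at least 6 bp accepted, among insertions of at least 6 bp. The cause was not tested. Across the alternatives other than leaving out a library, the share of modified reads differed by 1.26 to 5.85 points, the median length by -8 to -0.5 bp, GC content by -16.3 to -8.33 points, tandem duplications by -12.1 to -1.15, direct copies by -4.60 to 17.9, inverted copies by 12.6 to 32.2 and inverted copies across junctions by 14.5 to 36.4. Without each library in turn the share of modified reads differed by 5.57 to 6.43 points, the median by -2 to -1 bp, GC content by -17.2 to -14.7 points, tandem duplications by -7.06 to -3.0, direct copies by 9.37 to 13.3, inverted copies by 15.2 to 21.7 and those across junctions by 21.7 to 27.1. A replicate block, which pairs libraries of the same number, left each difference as it was (6.0 points for the share of modified reads), with an exact paired p of 0.5, the smallest for 2 pairs. The labels tie the sites only by number, and deviations of the 38 length shares correlated at -0.309 between libraries of the same number, so a crossed pairing, added after the data were seen, was also run. It called 0 differences, like the main comparison. With 2 libraries per site no test could pass 0.05, so the signs above are descriptions. Untreated libraries were not analysed here, and insertions from sequencing or PCR errors cannot be told apart from repair at low counts.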
